A study of Mus musculus with 24 samples.

Results

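The lens epithelium of CD1 mice, an outbred albino stock, was compared between 0.5 days after birth (P0.5, 3 libraries) and midgestation (E14.5, in embryonic days, 3 libraries). These 6 libraries, out of 24 in the series, were chosen by their labelled stage and tissue, and all genes were compared as the net change over the whole course. The epithelium had been microdissected from the fiber mass of lenses that carried no stated mutation or treatment, and total RNA depleted of ribosomal RNA was sequenced from 3 biological replicates per stage. The other 18 libraries are epithelium at E16.5 and E18.5 and lens fiber at the same 4 stages, also with 3 replicates each. They are used here for the path between the end points and for a test of whether a change differed between the tissues. How many lenses or animals went into 1 replicate is not given here, so the p-values measure the spread between these samples.

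The lens epithelium is a sheet of cuboidal cells on the front of the lens. Its cells divide, mostly in a zone ahead of the equator, and cells that pass the equator leave the cycle, elongate and become fibers. On its outer face the epithelium lays down the lens capsule, a thick basement membrane of type IV collagen, laminin, nidogen and heparan sulfate proteoglycan, and it borders the ciliary body, the zonule fibers that suspend the lens, and before birth a net of blood vessels. It also keeps up ion, water and amino acid exchange for the fibers, which have no blood supply.

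The counted reads per library were 8970302 to 11536674 at E14.5 and 9892083 to 11731328 at P0.5. Of those counts 8.09% to 17.4% fell on Rn45s, the precursor of ribosomal RNA, at E14.5, and 5.29% to 6.13% did at P0.5. Levels are given as CPM, counts scaled to a common library size with TMM factors, so a level can be set beside that of the same gene in another library but not beside another gene of other length. Of 12611 genes 12427 had enough counts to test. A gene is said to have risen, fallen or changed where it passed edgeR's quasi-likelihood test at a Benjamini-Hochberg adjusted p under 0.05 and differed at least 2-fold. Log2 changes are P0.5 minus E14.5 and carry a standard error (SE).

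From E14.5 to P0.5, 1249 genes rose and 399 fell in the epithelium, which is 10.1% and 3.21% of the genes tested. Counts of list members below are to be read beside these shares. The members of each list were chosen with earlier results of these data known, so a count above these shares is a description. The rises were also the larger changes. At least 4-fold changes were found for 518 genes that rose and 56 that fell, and at least 32-fold changes for 69 and 10. In 62.1% of the genes tested the 3 libraries of one stage lay wholly above or below the 3 of the other, so the absence of overlap alone marks most genes. Leaving Rn45s aside, the genes that rose took 2.54% to 2.77% of the counts at E14.5 and 8.33% to 8.44% at P0.5, and the genes that fell took 3.54% to 4.45% and then 1.34% to 1.44%. With scaling by library size alone, which leaves out the TMM factors, 1404 genes rose and 302 fell. The share of the calls that were rises was 75.8% with TMM and 82.3% with library size alone. Library size alone moved the median log2 change of all genes from 0.01 to 0.10.

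The rises and the falls took different paths between the end points. Shares of the net change, here and below, come from group means of log2(CPM + 1). These shares do not show how far the 3 libraries of a stage differed. The added 1 shrinks steps between levels near 0 CPM, so early steps of genes that start there count for less. For the genes that rose, the median share of the net change reached by E16.5 was 22.96%, and by E18.5 it was 91.3%. For 826 of them (66.1%) the largest of the 3 steps was the step from E16.5 to E18.5, and 480 stood beyond their P0.5 level at E18.5. For the genes that fell, the median share was 53.2% by E16.5 and 72.6% by E18.5, and 69 (17.3%) had their largest step from E16.5 to E18.5. Of the genes that fell, 282 (70.7%) went down at every step, against 608 (48.7%) of the risers that went up at every step.

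**Figure D1:**
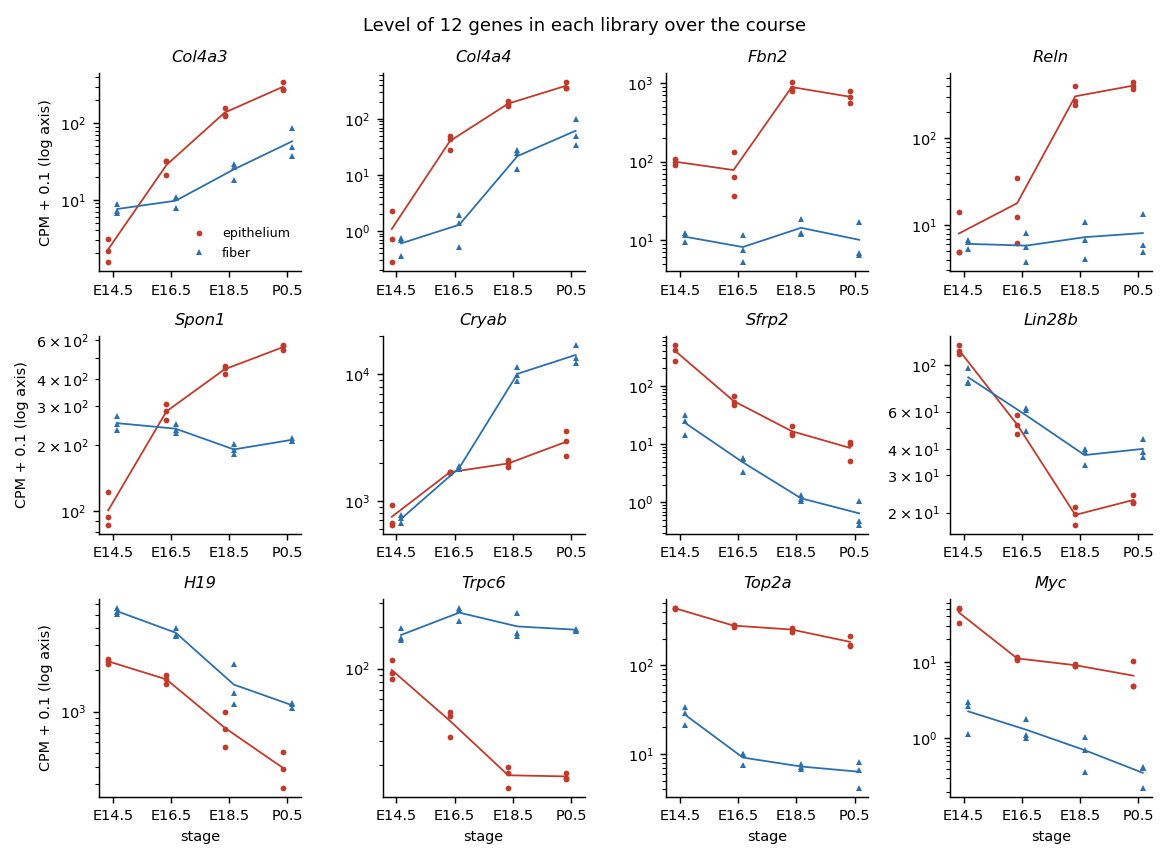
Level of 12 genes at 4 stages in epithelium (red circles) and fiber (blue triangles), each point 1 library and each line the group mean, on a log axis of CPM + 0.1. Col4a3 and Col4a4 rose step by step in epithelium, Fbn2 and Reln rose mainly between E16.5 and E18.5, and Sfrp2, H19, Top2a and Myc fell from the first step on.

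Markers of the tissues that touch the lens were summed in each library, because a dissected epithelium can carry neighbouring cells. In bulk RNA, more or fewer cells of a type and more or less RNA per cell cannot be told apart. Of 18 tested markers of neural retina and its progenitors, 14 rose and 0 fell (median log2 change 2.52), and their summed level was 217 to 253 CPM at E14.5 and 750.2 to 904 CPM at P0.5. The largest member was Dkk3, a secreted protein of the Dickkopf family, at means of 149.8 and 539.8 CPM, and fiber libraries held it at a mean of 3001 CPM at P0.5. Rax, an eye field homeobox gene, stood at 0.554, 2.35 and 1.44 CPM at E14.5 and 20.4, 20.4 and 16.4 CPM at P0.5. Its second E14.5 library was the highest of that stage, and the stages did not overlap. Rax rose by 3.68 ± 0.32 (SE) on the log2 scale (edgeR adjusted p = 1.5e-09), and in fiber its log2 change was 0.25 ± 0.72. Of the neuron markers on the list, Tubb3, a neuronal tubulin, rose from a mean of 2.13 to 10.1 CPM and Stmn2, a tubulin-binding protein of neurons, from 0.528 to 4.89 CPM, while Nrl, Opn1sw, Isl1 and Pou4f2 have no row among the genes used here.

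Of 12 tested markers of pigment epithelium and melanocytes, 10 rose and 0 fell, with a median log2 change of 3.68. Their sum was 106 to 116 CPM at E14.5, 101 to 106 at E16.5, 429 to 496 at E18.5 and 271 to 445 at P0.5, while fiber libraries held 110.5 to 119 CPM at E14.5 and 112 to 133 at P0.5. Tyrp1, an enzyme of melanin synthesis, stood at 1.35, 0.483 and 0.3000 CPM at E14.5 and 53.2, 45.5 and 26.6 at P0.5. Pmel, which forms the fibrils of the pigment granule, stood at 5.38, 2.35 and 2.4004 CPM and 54.8, 51.4 and 23.2 CPM. The third P0.5 library was the lowest of its stage for both genes, and neither gene's stages overlapped. Rpe65, Lrat, Rgr, Best1 and Ttr, which define mature retinal pigment epithelium or are abundant in it, are listed markers with no row among the genes used here.

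Of 21 tested markers of the ciliary margin and ciliary body epithelium, 15 rose and 1 fell (Ccnd2, described with the cell cycle), with a median log2 change of 4.18. Their sum was 1745 to 1788 CPM at E14.5 and 2067 to 2235 at P0.5, and Ccnd2 alone held a mean of 1166 CPM of it at E14.5. The transcription factor genes Otx1, Zic1, Zic2, Zic4 and Tbx20 rose by 4.76, 4.62, 4.46, 5.88 and 5.45 on the log2 scale. For the risers of the retina, pigment and ciliary lists the median share of the net change reached by E18.5 was 109%, 116% and 106%, so by the median these genes had reached their P0.5 level at E18.5. The part of neighbouring cells in the other rises was not tested.

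Of 9 markers of neurons and glia 7 rose, and the sums were 137 to 175 CPM at E14.5 and 344 to 392 CPM at P0.5. Of 18 endothelial markers 0 rose and 1 fell, and the sums were 525 to 613 and 386 to 471 CPM. In between they were 338 to 420 CPM at E16.5 and 465 to 657 CPM at E18.5, so the endothelial sum did not go down at every step. Of 9 mural cell markers 3 rose, among them Rgs5, which went from a mean of 39.6 to 236 CPM, and the sum was 263 to 295 and then 452 to 489 CPM. Of 13 macrophage markers 1 rose and 1 fell, beside 10.1% and 3.21% of all genes tested. The macrophage sums were 26.6 to 33.1 and 33.3 to 38.9 CPM. Of 10 mesenchyme markers 2 rose and 6 fell.

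**Figure D2:**
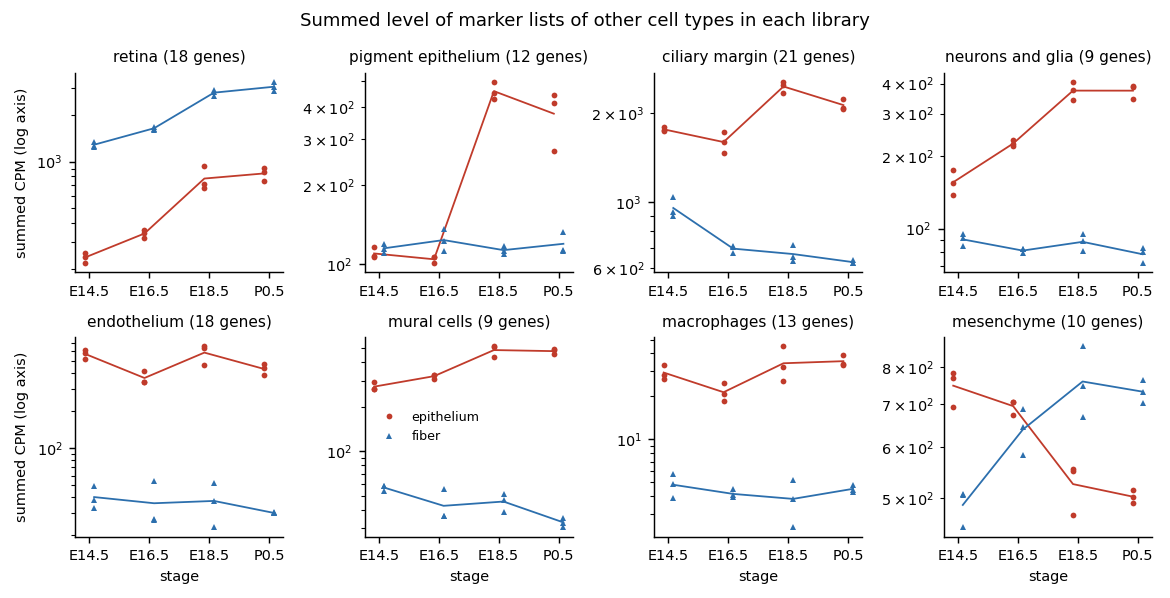
Summed CPM of 8 marker lists in each library (points) with group means (lines), epithelium in red and fiber in blue, on log axes. In epithelium the pigment sum steps up between E16.5 and E18.5 while in fiber it stays near its E14.5 level. The endothelial sum in epithelium is 525 to 613 CPM at E14.5, 338 to 420 at E16.5, 465 to 657 at E18.5 and 386 to 471 at P0.5.

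Markers of the labelled tissue were also compared between the stages, which does not test what the tissue is. Of 16 markers of lens epithelium 2 rose and 1 fell. The sum of this list does not tell epithelium from fiber. At E14.5 it was 10406 to 12671 CPM in epithelium and 99411 to 111630 CPM in fiber. The list includes Cryab, at a mean of 14248 CPM in P0.5 fiber against 2933 CPM in P0.5 epithelium. Pax6, the master regulator of eye development, stood at 410.3, 453 and 411 CPM at E14.5 and 535, 507 and 478 at P0.5. Foxe3, a forkhead factor that keeps the epithelium dividing and undifferentiated, stood at 198, 209.6 and 329 CPM and 117, 124 and 146 CPM, a log2 change of -0.93 ± 0.17 (SE) that did not reach 2-fold. It did reach it, at -1.06 to -1.03, without E14.5 epithelium replicate 1 or 2 or without P0.5 epithelium replicate 3. Cdh1, the epithelial cadherin, had a log2 change of -0.14 ± 0.09. Crystallin genes, whose proteins fill the fiber cells, took 1.66% to 2.13% of the counts of the epithelium at E14.5 and 2.84% to 4.28% at P0.5, against 42.8% to 43.9% in P0.5 fiber.

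The chains of type IV collagen, the main capsule protein, changed by very different amounts, and members of a gene pair lay nearest to each other. The 6 chain genes lie head to head in 3 pairs, and the chains form trimers of α1 and α2, of α3, α4 and α5, or of α5 and α6. Col4a3 and Col4a4, which make the α3 and α4 chains of mature basement membranes, lie on chromosome 1 at 82586921 to 82722059 (plus strand) and 82448423 to 82586849 (minus strand) in GRCm38. Between their annotated 5′ ends are 71 bases, against 1308 bases for Col4a6 and Col4a5 on chromosome X and an overlap of 22 bases for Col4a1 and Col4a2 on chromosome 8. The 71 bases between Col4a4 and Col4a3 are shown because the gene on either side rose from near 0. They are RefSeq promoter sequence at chr1:82586850-82586920 of GRCm38.p6, read on the minus strand toward Col4a4. They are 69% G and C and hold neither GGGCGG, the core of a GC box, nor CCAAT on either strand. Of the 9558 tested genes with a RefSeq promoter window (250 bases before to 50 after a start), 70.4% hold GGGCGG and 43.2% hold CCAAT in at least 1 of their windows, but those windows are longer.

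Col4a4 to Col4a3 gap: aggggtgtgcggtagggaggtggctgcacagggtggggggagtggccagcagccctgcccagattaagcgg

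Col4a4 stood at 0.633, 2.14 and 0.1800 CPM in the E14.5 libraries and at 361, 363 and 451 CPM in the P0.5 libraries. The third E14.5 library was lowest and the third P0.5 library highest, and no library of either stage came near the other stage. The mean was 40.2 CPM at E16.5 and 187 CPM at E18.5, so the rise was spread over all 3 steps. The log2 change was 8.66 ± 0.46 (SE, edgeR adjusted p = 5.2e-13). In fiber it was 6.89 ± 0.57, from a mean of 0.501 to 61.3 CPM, and the difference between the tissues, 1.77 ± 1.4, did not pass the test (edgeR adjusted p = 0.33).

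Col4a3 stood at 2.06, 2.97 and 1.44 CPM at E14.5 and 272, 283 and 345 CPM at P0.5, with means of 28.4 and 138 CPM in between. Its log2 change of 7.13 ± 0.31 (SE) exceeded the fiber change of 2.96 ± 0.27 by 4.17 ± 0.46 (edgeR adjusted p = 1.8e-07). Col4a2 stood at 1425, 1465 and 1547 CPM and then 3284, 3194 and 3644 CPM, a log2 change of 1.19 ± 0.07 that passed both limits. Its partner Col4a1 stood at 2081, 2130.1 and 2204 CPM and 3771, 3603 and 4027 CPM, a log2 change of 0.83 ± 0.07 that stayed under 2-fold. Col4a5 and Col4a6 had log2 changes of 0.37 ± 0.06 and 0.43 ± 0.07. All 6 chain genes had their 3 P0.5 libraries above their 3 E14.5 libraries, but the stages did not overlap in 62.1% of all genes tested. Only Col4a2, Col4a3 and Col4a4 rose.

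Of 23 tested laminins and capsule linkers 6 rose and 2 fell, with a median log2 change of 0.33. Hspg2, perlecan, the heparan sulfate proteoglycan of the capsule, stood at 1470.3, 1764 and 1848 CPM at E14.5 and 3285, 3499 and 3973 at P0.5. It rose by 1.08 ± 0.11 (SE) on the log2 scale (edgeR adjusted p = 2.0e-08), and in fiber by 1.22 ± 0.11. With E14.5 epithelium replicate 1 left out Hspg2 stood at a log2 change of 0.99, under the 2-fold limit. Lama2, the laminin α2 chain, went from 16.54, 20.6 and 14.6 CPM to 76.9, 80.4 and 97.5 CPM. Lama4, the α4 chain of vessel basement membranes, went the other way, from 81.8, 62.5 and 73.3 CPM to 41.7, 29.9 and 28.1 CPM, but it did not pass in DESeq2. Lama1, Lamb1 and Lamc1, the chains of laminin-111, had log2 changes of -0.26, -0.01 and 0.15, none of which passed. Col18a1, which makes the collagen whose end fragment is endostatin, stood at 72.9 CPM at E16.5 and 297 CPM at E18.5, between 114, 103 and 111 CPM at E14.5 and 344, 274 and 324 CPM at P0.5.

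Of 25 tested matrix genes of the zonule and the vitreous 16 rose and 1 fell, with a median log2 change of 2.40, against 0.01 for all genes tested. Its summed level was 666 to 753 CPM at E14.5, 837 to 993 at E16.5, 2660.1 to 3372 at E18.5 and 2652 to 3041 at P0.5. In 13 of the 25 the change was higher than in fiber by the test of the difference, against 7.92% of all genes tested. The list overlaps with the ciliary list in Col9a1, Col9a3 and Optc.

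Fbn2, fibrillin 2 of embryonic microfibrils, stood at 90.5, 109 and 99.4 CPM at E14.5 and 793, 662 and 564 CPM at P0.5. The P0.5 libraries ranged widely and the first was highest, but all 3 were at least 5-fold above every E14.5 library. The mean was 78.1 CPM at E16.5, with a standard deviation (SD) of 50.8 CPM, and 894 CPM (SD 124) at E18.5. The log2 change was 2.75 ± 0.30 (SE, edgeR adjusted p = 4.4e-08). In fiber it was -0.05 ± 0.45. Fbn1, the main fibrillin of the zonule, rose from 56.1, 58.1 and 70.3 CPM to 166, 159.8 and 161 CPM. Ltbp2, a microfibril protein needed for zonule integrity, was at 0.0792, 0 and 0.2400 CPM and then 31.5, 16.3 and 29.2 CPM. Its mean was 5.88 CPM at E18.5, so unlike most of the list a large part of its rise fell after E18.5. Ltbp1, a latency protein of TGF-beta, rose from 35.4, 45.5 and 38.05 to 296, 232 and 186 CPM.

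The collagens of cartilage and vitreous rose together. Col9a1 stood at 14.7, 26.8 and 15.002 CPM and then 398, 357 and 288 CPM, Col9a2 at 1.42, 2.35 and 2.22 and then 80.6, 69.9 and 69.4 CPM, and Col9a3 at 1.03, 0.897 and 0.4201 and then 68.05, 50.5 and 57.3 CPM. Their log2 changes were 4.2 ± 0.32, 5.17 ± 0.32 and 6.26 ± 0.27 (SE). Col2a1, the chain of type II collagen, whose fibrils carry type IX collagen on their surface, rose by 3.85 ± 0.34 from 1.98, 5.94 and 4.98 CPM. Optc, the vitreous proteoglycan opticin, stood at 0.158, 1.04 and 0.3601 CPM and then 57.03, 63.1 and 94.2 CPM. It passed its P0.5 level at E18.5, at a mean of 115 CPM. Hapln1, a link protein of hyaluronan matrix, fell from 12.8, 1.79 and 8.58 CPM to 0.516, 0.384 and 0.552 CPM and already stood at 0.297 CPM at E16.5. Cd44, the hyaluronan receptor, rose in both tissues, by 3.91 ± 0.32 in epithelium and 5.82 ± 0.32 in fiber.

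Of 23 fibrillar matrix genes 8 rose and 6 fell. Col3a1, the type III collagen chain, stood at 72.7, 52.2 and 51.9 CPM at E14.5 and 6.44, 4.29 and 4.85 CPM at P0.5, a log2 change of -3.5 ± 0.20 (SE, edgeR adjusted p = 2.1e-12). Lum, the corneal and stromal proteoglycan lumican, had 246 counts in the 3 E14.5 libraries and 1 in the 3 P0.5 libraries. The ratio of its levels was 0.00361 (95% Poisson interval 9.11e-05 to 0.0203, counting error only). Fn1, fibronectin, stood at 329.5, 259 and 357 CPM and 116, 87.3 and 84.6 CPM and had reached 133 CPM at E16.5. Among the genes that rose were Thbs1, thrombospondin 1, from 72.03, 97.9 and 53.6 to 346, 301 and 299.6 CPM, and Loxl1, an elastin cross-linking enzyme, from 49.9, 69.8 and 66.1 to 196, 227 and 253 CPM. In the mesenchyme list 6 of 10 markers fell and their sum was 692 to 783 CPM at E14.5 and 491 to 515 CPM at P0.5, and their part in the falls of Col3a1, Lum and Fn1 was not tested.

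**Figure D3:**
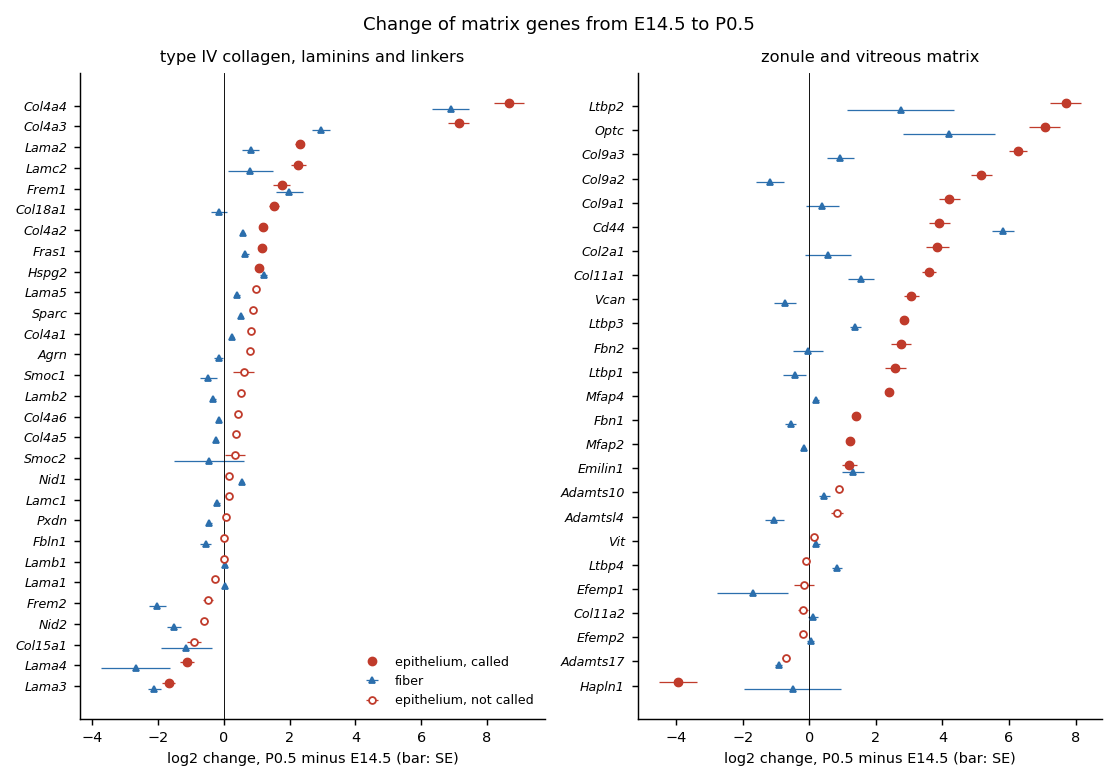
Log2 change from E14.5 to P0.5 with SE for type IV collagens, laminins and linkers (left) and zonule and vitreous matrix (right), epithelium in red (filled where called) and fiber in blue. Col4a4 and Col4a3 stand at the top on the left, and on the right 16 of 25 genes are filled above 0 while the fiber values lie lower for all of those except Cd44 and Emilin1.

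Among the other genes with the largest rises were several that were close to absent at E14.5. Ptgds, the prostaglandin D2 synthase of eye and brain fluids, had 0 counts in all 3 E14.5 libraries and 40.02, 42.03 and 22.3 CPM at P0.5. The third P0.5 library was lowest. Set against a floor of 3 counts over the E14.5 group the rise was at least 498-fold (edgeR adjusted p = 3.1e-13), and its mean was 28.5 CPM at E18.5. Slc13a4, a sulfate transporter, stood at 0, 0.759 and 0.06001 CPM and then 59.2, 56.8 and 44.2 CPM. Pla2g5, a secreted phospholipase A2, stood at 0.158, 0.897 and 0.1800 and then 40.9, 38.2 and 44.02 CPM. In fiber its mean went from 0 to 2.32 CPM, so the fiber log2 change of 7.91 ± 0.98 starts from no counts and its size is uncertain. The difference between the tissues did not pass the test (edgeR adjusted p = 0.44). Tmprss11e, a membrane serine protease, stood at 0.237, 0.207 and 0.06001 CPM and then 30.5, 24.02 and 22.2 CPM. Fiber already held Tmprss11e at a mean of 26.9 CPM at E14.5.

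Htra1, a secreted serine protease, stood at 1.58, 3.04 and 2.64 CPM at E14.5 and 176, 158 and 166 CPM at P0.5, a log2 change of 6.08 ± 0.19 (SE, edgeR adjusted p = 2.7e-16). Its E14.5 libraries all lay far below its P0.5 libraries. Its fiber change was 3.51 ± 0.24, and the difference of 2.56 ± 0.39 passed the test. Crhbp, which binds corticotropin releasing hormone, was uneven, with 0.0792, 2.28 and 0.2400 CPM and then 105, 87.1 and 47.6 CPM. Lrrn1, a leucine-rich repeat membrane protein, stood at 0.396, 3.796 and 2.7004 CPM and 165, 151 and 141 CPM. Megf11, a cell surface protein with EGF repeats, stood at 0, 0.966 and 0.4201 CPM and 53.1, 51.4 and 41.7 CPM. For Crhbp, Lrrn1 and Megf11 the second E14.5 library was again highest or close to it, as for Rax and Reln. The E16.5 libraries of some of these genes also differed widely. Their E16.5 mean and SD were 3.51 and 3.54 CPM for Crhbp, 9.23 and 11.2 CPM for Lrrn1 and 17.8 and 15.3 CPM for Reln. For Htra1 they were 8.82 and 1.60 CPM. Fam129a, now called Niban1, rose from 0.792, 1.31 and 1.02 to 64.9, 58.2 and 49.5 CPM.

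Reln, the secreted glycoprotein reelin that guides neuron positioning, stood at 4.83, 14.1 and 4.801 CPM at E14.5 and 445, 373 and 403 CPM at P0.5, and its log2 change was 5.69 ± 0.43 (SE, edgeR adjusted p = 1.9e-10). In fiber it stayed near 5.98 CPM, with a log2 change of 0.49 ± 0.59. Spon1, F-spondin, another secreted protein known from axon growth, stood at 86.2, 121 and 93.1 CPM and 572, 539.8 and 563 CPM. Its mean was 284 CPM at E16.5, and 60.7% of its net change had been reached by that stage. Its fiber change was -0.25 ± 0.09, and the difference was 2.73 ± 0.13 (edgeR adjusted p = 6.2e-13). Kcnh5, a voltage-gated potassium channel, rose from 0.475, 0.6901 and 0.4201 CPM to 38.8, 32.2 and 34.9 CPM.

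Some of the largest rises in CPM were of genes already high at E14.5. Fstl1, a secreted follistatin-like glycoprotein, stood at 379.7, 443 and 432 CPM and 859, 820.3 and 871 CPM, and its fiber log2 change was -0.01 ± 0.06. Slc7a2, a transporter of cationic amino acids, stood at 339, 416 and 382 CPM and 752, 743 and 819 CPM and rose in fiber too, by 1.77 ± 0.09. Without E14.5 epithelium replicate 1 Fstl1 and Slc7a2 stayed under 2-fold, at log2 changes of 0.96 and 0.95, and without P0.5 epithelium replicate 3 Slc7a2 did, at 0.98. Rmrp, the RNA of an RNase that acts on ribosomal RNA and mitochondrial primers, stood at 1264, 581 and 783 CPM and 3142, 2728 and 2664 CPM. Its 3 E14.5 libraries differed by more than 2-fold among themselves. The RNA of Rmrp is short and not polyadenylated, which total RNA libraries retain.

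Cell division genes gave the longest list of falls. Of 36 mitosis genes 0 rose and 29 fell, with a median log2 change of -1.17. The summed level was 2864 to 3064 CPM at E14.5, 1801 to 1926 at E16.5, 1681 to 1868 at E18.5 and 1284 to 1464 at P0.5. In fiber 32 of the 36 fell from a far lower sum, 163 to 240.3 CPM at E14.5 to 60.3 to 94.7 at P0.5. Top2a, the topoisomerase that untangles chromosomes, stood at 439, 435 and 446 CPM at E14.5 and 166, 171 and 216 CPM at P0.5. The third P0.5 library was highest of its stage, and all 3 were below every E14.5 library. Its log2 change was -1.25 ± 0.12 (SE, edgeR adjusted p = 3.5e-09). Cdk1, the kinase that starts mitosis, stood at 68.9, 58.7 and 65.8 CPM and 30.4, 30.6 and 35.03 CPM, a log2 change of -1.01 ± 0.10 at the 2-fold limit. It did not pass without E14.5 epithelium replicate 1 or 3 or without P0.5 epithelium replicate 1 or 2, at log2 changes of -0.99 to -0.96, nor with library size alone, at -0.92, nor at a minimum count of 50. Cenpe, a kinetochore motor, had the largest fall of the list, -1.5 ± 0.09, from 146, 150.0 and 158 to 56.6, 48.2 and 55.9 CPM. Mki67, the proliferation marker Ki-67, stood at 560.0, 537 and 542 CPM and 297, 274 and 317 CPM, a log2 change of -0.89 ± 0.13 that stayed under 2-fold.

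Promoters of cell cycle genes carry known elements, and stretches of 3 such promoters are shown, Cdk1 and Top2a from the mitosis list and Mcm6 from the replication list. The first element, CCAAT, is bound by the factor NF-Y. The core of the CHR element known from promoters of mitotic genes is TTTGAA, searched like the others on both strands. A form of the E2F site known from replication genes is TTTGGCGC. The stretches come from RefSeq promoter windows of GRCm38.p6, all on the minus strand, and hold no base of the gene as annotated. They are chr10:69352939-69353062 for Cdk1, chr11:99024190-99024339 for Top2a and chr1:128359706-128359855 for Mcm6. Capitals mark exact matches on either strand, to the NF-Y and CHR elements in Cdk1 and Top2a and to the E2F form alone in Mcm6.

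Cdk1: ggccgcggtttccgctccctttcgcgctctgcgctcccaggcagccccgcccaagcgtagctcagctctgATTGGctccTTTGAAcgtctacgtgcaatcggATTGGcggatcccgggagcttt

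Top2a: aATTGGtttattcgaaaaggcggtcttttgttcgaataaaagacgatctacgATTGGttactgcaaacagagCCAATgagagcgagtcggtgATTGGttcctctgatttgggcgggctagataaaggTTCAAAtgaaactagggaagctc

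Mcm6: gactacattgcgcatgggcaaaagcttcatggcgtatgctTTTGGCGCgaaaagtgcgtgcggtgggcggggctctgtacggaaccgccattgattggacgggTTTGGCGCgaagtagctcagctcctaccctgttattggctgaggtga

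Cdk1 shows 3 marked elements, Top2a 5 and Mcm6 2. Shares over genes come from the whole windows of 300 bases, longer than the printed stretches, and a gene counts where any of its windows holds the element. Windows were found for 9558 of the 12427 tested genes, for 29 of the 36 mitosis genes and for 27 of the 35 replication genes. TTTGAA was found for 22 of the 29 mitosis genes (75.9%), 4 of the 27 replication genes (14.8%) and 14% of all genes with a window. CCAAT was found for 72.4% of the mitosis genes, 63% of the replication genes and 43.2% of all. TTTGGCGC was found for 0 of 29 mitosis genes, 5 of 27 replication genes (18.52%) and 1.19% of all. Among the genes that fell 29.5% held TTTGAA and 3.27% held TTTGGCGC, and among the genes that rose 14.1% and 0.661% did. These are letter matches and are given as a description without a test.

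Of 35 replication genes 0 rose and 15 fell, with a median log2 change of -0.99, close to the 2-fold limit, and the count moved with 1 library left out. It was 7 without P0.5 epithelium replicate 1, 23 without P0.5 epithelium replicate 3 and 9 with library size alone. All 35 had negative log2 changes, from -1.47 to -0.21. The summed level was 1549 to 1709 CPM at E14.5 and 699 to 1014 CPM at P0.5. Mcm6, a subunit of the replicative helicase, stood at 129, 120.5 and 125 CPM and 53.4, 57.7 and 75.96 CPM, a log2 change just short of the 2-fold limit. It passed in DESeq2, at -1.02, with P0.5 epithelium replicate 3 left out, at -1.17, and at -1.03 to -1.0 with E14.5 epithelium replicate 2 or 3 left out, without a filter, with TMM factors that leave out crystallins, and with a replicate block. Cdc6, which loads the helicase, had the largest fall, from 24.9, 22.4 and 22.5 to 5.41, 7.69 and 11.9 CPM. Mcm10, which activates the helicase, stood at 37.4, 35.1 and 37.3 CPM and 10.3, 12.3 and 17.3 CPM. In fiber the log2 change of Mcm10 was 0.97 ± 0.17, and the difference of -2.41 ± 0.21 passed the test (edgeR adjusted p = 9.0e-09). The separase gene Espl1 of the mitosis list also differed between the tissues, -1.38 ± 0.12 in epithelium and 0.63 ± 0.19 in fiber.

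Of 28 cell cycle control genes 1 rose and 6 fell. Ccnd2, cyclin D2, which is also on the ciliary list, stood at 1196, 1131 and 1172 CPM at E14.5 and 481, 461 and 572 CPM at P0.5, a log2 change of -1.21 ± 0.11 (SE, edgeR adjusted p = 2.1e-09). Ccne1, cyclin E1, fell by 1.37 ± 0.18 on the log2 scale, from 17.02, 12.8 and 15.4 to 5.09, 5.06 and 7.23 CPM. The growth arrest gene Gas1 rose, from 18.6, 21.9 and 22.9 to 67.3, 64.5 and 54.1 CPM with a mean of 102 CPM at E18.5. The cyclin-dependent kinase inhibitor Cdkn1c stood at 372, 396 and 304 CPM and 621, 654 and 696 CPM, a log2 change of 0.88 ± 0.09 that stayed under 2-fold. Myc, the growth transcription factor, fell from 51.4, 32.4 and 49.9 CPM to 4.77, 4.74 and 10.1 CPM, and its mean was 11.1 CPM by E16.5.

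The fetal program list, genes that are high in embryonic tissues and are tied to the let-7 microRNA pathway, had 0 risers and 7 that fell of 15 tested. Lin28b, which blocks let-7 maturation, stood at 112, 116 and 124 CPM at E14.5 and 24.1, 22.04 and 22.4 CPM at P0.5. Its log2 change was -2.36 ± 0.10 (SE, edgeR adjusted p = 1.4e-14), beside -1.13 ± 0.10 in fiber, a difference of -1.23 ± 0.14 (edgeR adjusted p = 3.9e-07). Lin28a, its paralog, had 231 counts over the 3 E14.5 libraries and 3 over the 3 P0.5 libraries. The ratio of its levels was 0.0115 (95% Poisson interval 0.00236 to 0.0342). Sall4, a zinc finger factor of stem cells, stood at 15.5, 12.8 and 18.8 CPM and 0.258, 0.0641 and 0.0552 CPM, the largest log2 change of the list at -6.9 ± 0.31. In fiber it was -4.18 ± 0.35. Igf2bp1, an RNA-binding protein, fell from 364, 354 and 369.5 CPM to 125, 123 and 136 CPM, and Igf2bp3 fell from 147, 145 and 154 to 68.3, 69.96 and 67.2 CPM. Hmga2, a chromatin protein of growing tissues, stood at 534, 571 and 573 CPM and 319, 311 and 337 CPM, a log2 change of -0.80 ± 0.09 that stayed under 2-fold.

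Of 22 imprinted growth genes 2 rose and 6 fell. H19, a maternally expressed noncoding RNA, stood at 2401, 2191 and 2316 CPM at E14.5 and 511, 386 and 283 CPM at P0.5, and 62.9% of its net change had been reached by E18.5. Its log2 change was -2.55 ± 0.21 (SE, edgeR adjusted p = 6.2e-10), beside -2.25 ± 0.21 in fiber. Its neighbour Igf2, insulin-like growth factor 2, stood at 362, 288 and 412 CPM and 162, 126 and 131 CPM. The means of Igf2 in between were 116 and 239 CPM, so it did not go down at every step. Mest stood at 1339, 1138 and 1462 CPM and 443, 389 and 400.2 CPM and Grb10, an adaptor that restrains insulin signalling, at 492, 477 and 464 CPM and 244, 231 and 228 CPM. The fall of Grb10 was smaller than in fiber, -1.03 ± 0.09 against -2.04 ± 0.10, and with library size alone it did not pass, at -0.94. Peg10, a retrotransposon-derived gene, fell from 83.9, 55.2 and 72.7 CPM to 12.1, 8.52 and 7.61 CPM, and its log2 change differed from that in fiber by -2.14 ± 0.27. Meg3, a maternally expressed noncoding RNA, rose, from 16.2, 16.01 and 17.04 to 79.6, 63.1 and 48.7 CPM. The other riser, Mirg, had a mean of 1.21 CPM at P0.5, and it did not pass without E14.5 epithelium replicate 1, 2 or 3 or without P0.5 epithelium replicate 1 or 2.

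Embryonic globins gave the largest falls among the genes named here. Hbb-y, the embryonic beta-like globin of primitive red cells, stood at 207, 138 and 233 CPM at E14.5. It had 8500 counts over the 3 E14.5 libraries and 2 over the 3 P0.5 libraries, a ratio of levels of 0.000209 (95% Poisson interval 2.53e-05 to 0.000756). Hba-x, the embryonic alpha-like globin, went from 1461 counts to 2, a ratio of 0.00122 (0.000147 to 0.0044). Both had lost most of their level by E16.5, at means of 2.77 and 1.16 CPM. In fiber Hbb-y also fell, from a mean of 23.6 CPM to 0. Slc4a1, the anion exchanger of red cells, fell from 10.2, 13.3 and 10.3 to 1.03, 0.3203 and 0.276 CPM. Of 8 tested globin and heme genes 7 fell, and the eighth, Sptb, is also high in fiber (1449 CPM at E14.5). The list has 13 members with a row. Those with too few counts to test were Hba-a1, Hba-a2, Hbb-bt, Hbb-bs and Hbb-b1, so the adult globins could not be followed. Reads of near-identical globins may be shared.

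Sfrp2, a secreted Wnt antagonist that is also on the lens epithelium list, stood at 415, 271 and 504 CPM at E14.5 and 9.86, 10.8 and 4.96 CPM at P0.5. The E14.5 libraries differed among themselves, with the second lowest, but the lowest of them was far above every P0.5 library. Its log2 change was -5.55 ± 0.27 (SE, edgeR adjusted p = 1.0e-13), its means in between were 55.2 and 16.6 CPM, and in fiber the change was -5.29 ± 0.52. Trpc6, a calcium-permeable channel, stood at 116, 83.6 and 92.95 CPM and 17.5, 16.1 and 15.8 CPM. In fiber it did not pass the test, with a log2 change of 0.13 ± 0.14, and the difference was -2.69 ± 0.22 (edgeR adjusted p = 1.9e-09). Lrtm1, a leucine-rich repeat membrane protein, fell from 109, 114 and 106 CPM to 12.4, 9.42 and 7.23 CPM, and 16.6% of that change had been reached by E16.5. Greb1, an estrogen-responsive gene, fell from 92.6, 87.8 and 111 to 14.6, 18.96 and 18.6 CPM. Igdcc3, an immunoglobulin family receptor, fell from 48.5, 40.9 and 53.2 to 11.9, 12.2 and 11.9 CPM, and the transcription cofactor Eya4 from 21.4, 22.6 and 22.1 to 5.99, 5.19 and 5.57 CPM. Cpne7, a calcium-dependent membrane-binding protein, fell from 54.9, 51.7 and 79.3 to 14.4, 11.98 and 16.1 CPM.

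Igfbp5, which binds insulin-like growth factors, fell from 1654, 1898 and 1935 CPM to 1214, 830.2 and 556 CPM. It stood at 2212 CPM at E16.5 and 1773 CPM at E18.5, so nearly all of its fall lay between E18.5 and P0.5, and its 3 P0.5 libraries spread over more than 2-fold. With P0.5 epithelium replicate 3 left out Igfbp5 stood at a log2 change of -0.84, and with library size alone at -0.99, both under the 2-fold limit. Capn3, a calpain protease with lens-specific forms, fell from 580.2, 591 and 706 to 211, 215 and 215 CPM, mostly between E16.5 (517 CPM) and E18.5 (208 CPM), a log2 change of -1.55 ± 0.11 beside -1.88 ± 0.11 in fiber. Of 58 histone genes 0 rose and 9 fell, with a median log2 change of -0.62.

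Crystallin genes in the epithelium differed in how they moved. Cryab, αB-crystallin, a small heat shock protein, stood at 646, 926 and 670.4 CPM at E14.5 and 2279, 2979 and 3539.7 CPM at P0.5, a log2 change of 1.97 ± 0.15 (SE, edgeR adjusted p = 1.7e-10). In fiber it rose by 4.31 ± 0.16, and the difference of -2.33 ± 0.21 passed the test. Cryaa, αA-crystallin, stood at 6547, 7301 and 8408 CPM and 10674, 13859 and 15541 CPM, a log2 change of 0.85 ± 0.13 that stayed under 2-fold. Crybb2, a β-crystallin of the postnatal lens, stood at 4.35, 4.21 and 4.86 CPM and 54.8, 91.2 and 108 CPM. Its first P0.5 library was lowest, and the fiber change was far larger, 9.16 ± 0.48. Crygs, γS-crystallin, stood at 33.6, 42.4 and 39.3 CPM and 74.8, 136 and 161 CPM, beside a fiber change of 4.92 ± 0.24. Of 30 lens fiber markers, crystallins included, 7 rose and 2 fell in epithelium, against 20 that rose in fiber. The epithelial count was 12 without P0.5 epithelium replicate 1, whose fiber markers summed lower than in the other P0.5 libraries. Hspb1, another small heat shock protein, stood at 0.0792, 0.06901 and 0.1800 CPM and then 0.258, 0.384 and 0.938 CPM, and in P0.5 fiber at a mean of 20.2 CPM. With P0.5 epithelium replicate 3 left out its epithelial rise was no longer called. Scnn1b, a sodium channel subunit of the fiber list, fell from 2.22, 2.48 and 2.94 to 0.0644, 0.3203 and 0.1103 CPM.

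Of 31 lens transcription factor genes 5 rose and 0 fell. Six6, a homeobox gene also on the retina list, stood at 1.504, 3.796 and 1.56 CPM and 40.5, 38.95 and 28.6 CPM, with the second E14.5 library highest of its stage. Dach1, a cofactor of the same network, rose from 14.1, 26.2 and 22.98 to 91.1, 76.8 and 53.8 CPM. Id1, a target of BMP signalling, rose by 1.66 ± 0.16 from a mean of 7.22 CPM. Eya2 and Bcl11a, the other risers, reached means of 2.15 and 5.28 CPM, and Bcl11a did not pass without E14.5 epithelium replicate 3 or P0.5 epithelium replicate 2. Prox1, Maf and Pitx3 had log2 changes of -0.20, -0.21 and -0.43, none of which passed.

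In the BMP and TGF-beta list 9 of 27 genes rose and 0 fell, with a median log2 change of 0.66. The risers were Bmp2, Bmp4, Inhba, Inhbb, Fstl1 and Grem1, which make secreted proteins, and Id1, Msx1 and Msx2. Bmp4, a ligand also on the ciliary list, stood at 1.11, 0.759 and 0.4801 CPM at E14.5 and 45.8, 36.5 and 25.98 CPM at P0.5. Grem1, a secreted BMP antagonist, stood at 0.0792, 0.207 and 0.1800 CPM and 21.3, 22.1 and 9.87 CPM, and its mean was 0.178 CPM at E16.5 and 17.3 CPM at E18.5. Inhba, the activin A subunit, took another path, with 1.35, 2.55 and 1.68 CPM, then means of 9.77 and 21.6 CPM, then 34.5, 31.6 and 39.1 CPM. Inhbb, the activin B subunit, went from 0.317, 0.966 and 0.2400 CPM through 4.38 and 6.103 CPM to 9.02, 8.905 and 9.27 CPM. Inhba and Inhbb rose in fiber too, by 2.25 ± 0.64 and 2.7 ± 0.52. The receptors Bmpr1a, Bmpr2, Tgfbr1 and Acvr1 had log2 changes of 0.09, 0.25, -0.07 and 0.06, none of which passed.

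Of 29 Wnt genes 10 rose and 4 fell, and with library size alone 2 fell. Notum, an enzyme that removes the lipid from Wnt proteins, stood at 0.396, 1.31 and 0.8401 CPM at E14.5 and 35.8, 36.5 and 40.6 CPM at P0.5. Nkd2, a cytoplasmic inhibitor, stood at 2.53, 2.76 and 1.86 CPM and 61.3, 56.4 and 42.4 CPM. Dkk3 rose from 135, 153 and 162 CPM to 561, 559.9 and 499 CPM, and Wif1, which binds Wnt proteins, rose by 3.41 ± 0.27. Sfrp2 and Dkk2 fell. Of the ligands, Wnt2b rose from 0.633, 0.207 and 0.06001 to 4.897, 4.16 and 3.1996 CPM. Of the receptors, Fzd1, Fzd6 and Fzd8 rose by 1.24, 1.5 and 2.15, while Fzd3 and Fzd7 fell, Fzd3 from 329.9, 319.9 and 316 to 162, 154 and 140.1 CPM and Fzd7 from 150.5, 147 and 171 to 77.004, 71.9 and 81.98 CPM. Fzd7 did not pass without E14.5 epithelium replicate 3 or P0.5 epithelium replicate 2, and with library size alone neither did. Lef1, a nuclear effector, stood at 9.02, 8.76 and 8.401 CPM and 29.5, 26.8 and 27.1 CPM. Axin2, a common target gene, had a log2 change of 0.15 ± 0.09 that did not pass.

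In the FGF and receptor kinase list 3 of 29 rose and 3 fell, 10.3% each, beside 10.1% and 3.21% of all genes tested. With library size alone 1 fell. Fgf1, a ligand with no signal peptide, stood at 1.11, 1.104 and 0.9001 CPM and 12.4, 10.7 and 12.1 CPM. It rose by 3.5 ± 0.30 in epithelium and by 3.72 ± 0.62 in fiber. The feedback inhibitors Dusp4 and Spry4 fell, with log2 changes of -1.13 and -1.01 from means of 5.99 and 12.01 CPM. Dusp4 did not pass without E14.5 epithelium replicate 3, and Spry4 did not without E14.5 epithelium replicate 1 or P0.5 epithelium replicate 1 or 2, with library size alone or at a minimum count of 50. The receptors Fgfr1, Fgfr2 and Fgfr3 had log2 changes of -0.01, -0.17 and 0.61, none of which passed. Of 20 Notch genes 1 rose, the ligand Dll1, from 0.792, 2.07 and 1.14 CPM to 23.2, 21.3 and 23.6 CPM. Jag1, a Notch ligand that lens development requires, had a log2 change of 0.08 ± 0.07.

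Of 33 axon guidance genes 8 rose and 2 fell, beside 10.1% and 3.21% of all genes tested, and with library size alone 1 fell. Unc5c, a netrin receptor, stood at 3.64, 5.66 and 2.94 CPM at E14.5 and 83.8, 71.4 and 46.4 CPM at P0.5, with the third P0.5 library lowest. Sema3f, a secreted semaphorin, stood at 8.94, 12.8 and 11.9 CPM and 49.6, 47.7 and 56.8 CPM. Its receptor Nrp2 fell, from 18.2, 15.1 and 15.5 CPM to 8.63, 6.73 and 6.51 CPM. The netrin gene Ntn1 stayed under 1 CPM on average at both stages.

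Nuclear receptor genes were among the risers. Nr3c1, the glucocorticoid receptor, stood at 12.8, 13.5 and 10.3 CPM at E14.5 and 40.9, 37.8 and 35.6 CPM at P0.5. Sgk1, a kinase induced by glucocorticoids, stood at 5.38, 3.45 and 5.76 CPM and 43.8, 43.9 and 29.5 CPM, and its mean was 61.004 CPM at E18.5. Of 15 tested glucocorticoid response genes 3 rose and 1 fell, beside 10.1% and 3.21% of all genes tested. Fkbp5 and Tsc22d3, other common targets, had log2 changes of -0.31 and 0.48 that did not pass. Of 21 retinoic acid and thyroid genes 5 rose and 2 fell, and without E14.5 epithelium replicate 3 the falls numbered 1. Aldh1a3, which makes retinoic acid, stood at 2.295, 7.18 and 2.58 CPM and 18.9, 27.2 and 23.8 CPM. Stra6, a receptor that takes up retinol, fell from 171, 180.3 and 226 CPM to 80.4, 85.7 and 102 CPM, and it is the gene that did not pass without that library. Dio3, which inactivates thyroid hormone, was at 0.158, 0.276 and 0 CPM and then 3.35, 3.08 and 4.52 CPM. Of 19 clock genes 4 rose and 1 fell, and 7 rose with library size alone. Rora, a nuclear receptor of the clock, rose by 1.82 ± 0.10 in epithelium and 1.76 ± 0.11 in fiber.

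Of 16 immediate early genes, which respond to many stimuli within minutes, 1 rose and 4 fell, beside 10.1% and 3.21% of all genes tested. Egr1 stood at 22.2, 13.5 and 26.5 CPM at E14.5 and 4.25, 5.64 and 3.696 CPM at P0.5, a log2 change of -2.2 ± 0.37 (SE, edgeR adjusted p = 2.0e-05). Fos stood at 3.01, 2.07 and 3.84 CPM and 0.644, 0.641 and 0.717 CPM. Jun and Junb had log2 changes of -0.21 and 0.78, neither of which passed.

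Of 17 antigen presentation and interferon genes 8 rose and 0 fell. Tapbp, tapasin, which loads peptides onto class I molecules, rose from 15.4, 17.5 and 15.9 to 37.6, 36.9 and 38.3 CPM. B2m, the class I light chain, had a log2 change of 0.25 ± 0.13 that did not pass. Of 7 complement and innate genes tested 2 rose, and 4 did with library size alone. Apoe, a lipid carrier, rose from 14.01, 12.4 and 11.2 CPM to 92.2, 86.2 and 65.3 CPM.

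Of 33 lysosomal genes 8 rose and 0 fell, with a median log2 change of 0.67, and their sum was 1739.9 to 1858 CPM at E14.5 and 2992 to 3086 CPM at P0.5. The fiber median was 0.20, and 0 passed there. Fiber sums were 2807 to 2985 CPM at E14.5 and 3382 to 3496 CPM at P0.5. By the test of the difference the change was higher in epithelium for 3 of the 33, beside 7.92% of all genes tested. Ctsl, cathepsin L, stood at 91.5, 102 and 94.8 CPM at E14.5 and 319.6, 333 and 352 CPM at P0.5, a log2 change of 1.8 ± 0.07 (SE, edgeR adjusted p = 5.9e-15). Ctsd, cathepsin D, stood at 106, 118 and 123 CPM and 281, 291 and 323 CPM. Both went up at each stage, with means at E16.5 and E18.5 of 151 and 247 CPM for Ctsl and 153 and 246 CPM for Ctsd. Ctsh, cathepsin H, rose from 2.77, 3.38 and 2.82 to 12.4, 12.7 and 12.7 CPM.

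Of 36 glutathione and redox genes 8 rose and 0 fell. Gstm1, a glutathione transferase, stood at 93.1, 93.8 and 95.1 CPM and 248, 278 and 338 CPM. Txnip, which binds thioredoxin, stood at 10.6, 12.8 and 12.1 CPM and 56.6, 42.1 and 31.8 CPM, and 46.1% of its change had been reached by E18.5. Gclc, Gss and Gsr, which make and recycle glutathione, had log2 changes of 0.25, 0.08 and -0.07 that did not pass.

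Energy and biosynthesis lists are set beside the shares of all genes, 10.1% that rose and 3.21% that fell. Of 30 oxidative phosphorylation genes 0 rose and 0 fell. Of 28 glycolysis and hypoxia genes 5 rose and 0 fell, led by Aldoc, an aldolase, from 8.55, 9.18 and 10.4 CPM to 83.4, 100.2 and 126 CPM, with a fiber change of 3.5 ± 0.14. In 10 of the 28 the change was lower than in fiber. Ldha, lactate dehydrogenase A, had a log2 change of -0.67 ± 0.25 in epithelium and 0.93 ± 0.27 in fiber, a difference of -1.6 ± 0.37 (edgeR adjusted p = 0.0012). Of 30 ribosome biogenesis genes 0 rose and 1 fell, Rrp12, although all 30 log2 changes were negative and the median was -0.69. The count was 3 without P0.5 epithelium replicate 3. Of 82 ribosomal protein genes 0 rose and 0 fell, with a median of -0.07. Of 22 one-carbon and serine genes 0 rose and 5 fell, among them Mthfd2, a mitochondrial folate enzyme, from 15.9, 13.7 and 15.1 to 3.48, 4.805 and 5.79 CPM, and Ppat, the first enzyme of purine synthesis, from 60.5, 52.4 and 59.2 to 22.9, 26.4 and 24.8 CPM. Of 29 cholesterol and lipid synthesis genes 0 rose and 2 fell, and without P0.5 epithelium replicate 3 the count was 4.

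Of 30 ion and water transport genes 12 rose and 2 fell, beside 10.1% and 3.21% of all genes. Aqp1, a water channel, stood at 2.22, 2.35 and 2.16 CPM at E14.5 and 52.4, 46.6 and 53.01 CPM at P0.5, a log2 change of 4.49 ± 0.18 (SE, edgeR adjusted p = 5.8e-15). Slc4a5, a sodium bicarbonate cotransporter also on the ciliary list, stood at 2.61, 3.66 and 4.56 CPM and 77.7, 68.1 and 54.8 CPM. Slc6a6, the taurine transporter, rose from 62.1, 72.3 and 70.6 CPM to 248, 205 and 249 CPM. Slc16a3, a lactate exporter, fell in epithelium, from 44.4, 44.5 and 65.1 CPM to 20.2, 18.3 and 21.96 CPM, and rose in fiber by 1.63 ± 0.29. Its epithelial mean was 52.1 CPM at E16.5 and 64.2 CPM at E18.5, so the fall came after E18.5. In fiber its mean was 44.4 CPM at E18.5 and 28.0 CPM (SD 15.1) at P0.5. Atp1b1, a sodium pump subunit, rose from 1.42, 2.001 and 3.0005 to 12.6, 12.1 and 12.9 CPM.

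Of 23 epithelial junction genes 6 rose and 0 fell. Gja1, connexin 43, the gap junction protein of the lens epithelium, stood at 172, 186 and 182 CPM and 714, 630.0 and 442 CPM and at a mean of 833 CPM at E18.5. Its log2 change was 1.73 ± 0.17 (SE, edgeR adjusted p = 7.3e-09), and in fiber it was 0.41 ± 0.25. Of the tight junction genes of the list that rose, Cldn1 stood at 1.35, 4.07 and 1.38 CPM and 60.3, 54.9 and 40.2 CPM, Ocln, occludin, at 0, 0.138 and 0.1800 CPM and 9.28, 7.94 and 7.23 CPM, and Cgn, cingulin, at 14.3, 14.8 and 12.5 CPM and 89.2, 68.1 and 59.3 CPM. Nectin3, an adhesion protein of adherens junctions, rose from 114, 152 and 109 to 345, 306 and 304 CPM. Of 20 integrin and adhesion genes 1 rose and 2 fell. The riser, Itgb5, lay near the 2-fold limit and lost its call with E14.5 epithelium replicate 1 or P0.5 epithelium replicate 3 left out. Itgb3, a receptor chain for vitronectin, fell from 7.36, 8.07 and 11.2 to 0.967, 0.513 and 1.16 CPM. Of 22 contractile and mesenchymal transition genes 3 rose and 0 fell, beside 10.1% and 3.21% of all genes tested. Acta2, smooth muscle actin, went from 2.85, 5.59 and 3.06 to 16.9, 20.9 and 16.7 CPM.

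**Figure D4:**
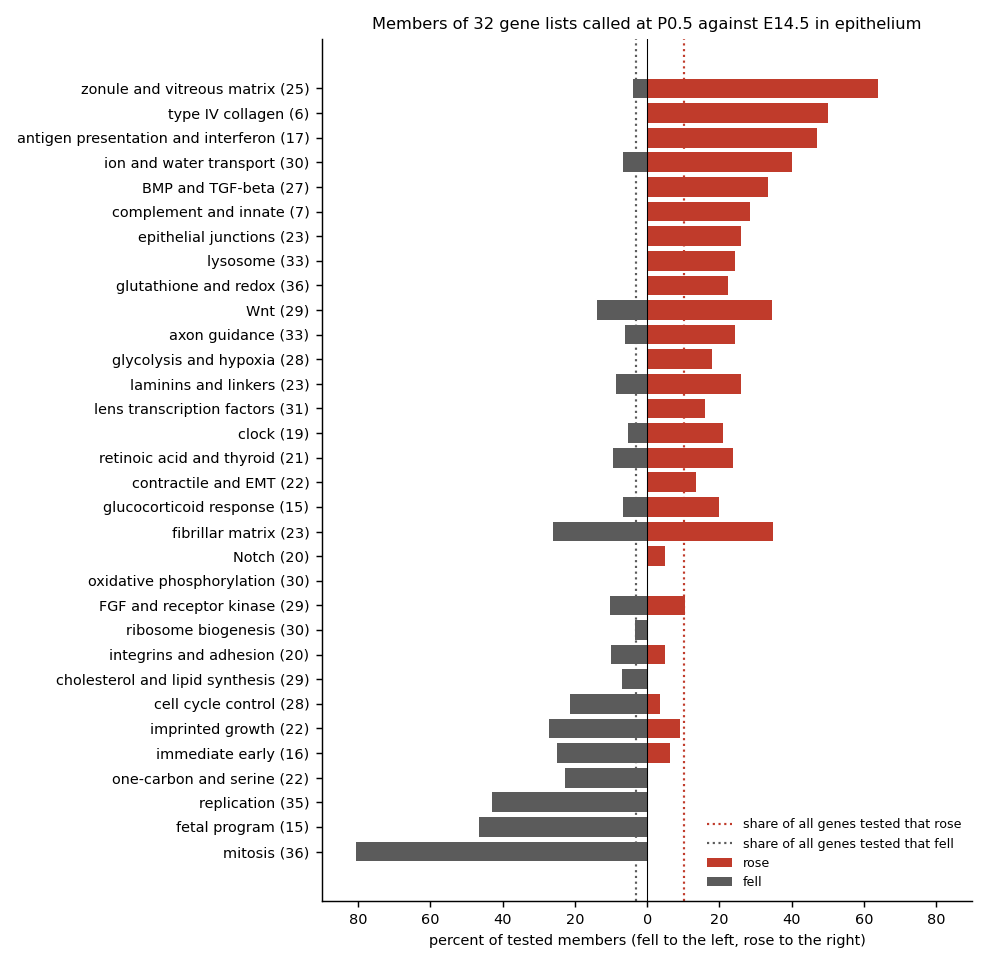
Percent of tested members of 32 gene lists that rose (red, right) or fell (grey, left), with the number tested in parentheses and dotted lines at the shares of all genes, 10.1% and 3.21%. Mitosis, the fetal program and replication lie furthest to the left, and zonule and vitreous matrix and type IV collagen furthest to the right.

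The course in the epithelium was then set beside the course in fiber, which shares no library with it. In fiber 831 genes (6.69%) rose and 651 (5.24%) fell. Of these, 343 rose in both tissues, which is 27.5% of the epithelial risers and 41.3% of the fiber risers, and 189 fell in both, 47.4% and 29.0%. Opposite calls were few, 33 genes that rose in epithelium and fell in fiber and 9 the other way. By the test of the difference the change was higher in epithelium for 984 genes (7.92%) and lower for 468 (3.77%). Of the 1249 epithelial risers 538 (43.1%) rose by more than in fiber, and of the 399 that fell 77 (19.3%) fell by more. With library size alone the differences numbered 3260 higher and 138 lower, so these counts depend on the scaling. The test of the difference that is given for single genes rests on TMM factors.

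Cldn19, a claudin of pigment epithelium and kidney, had the largest positive difference among the genes named. It stood at 0.237, 0.414 and 0.2400 CPM at E14.5 and 23.3, 22.2 and 22.5 CPM at P0.5 in epithelium, and in fiber its log2 change was -0.80 ± 0.28. The difference was 7.01 ± 0.43 (SE, edgeR adjusted p = 2.4e-11). Sorcs1, a sorting receptor, rose from 2.93, 4.8999 and 2.7004 CPM to 58.7, 55.7 and 50.2 CPM in epithelium while in fiber it fell, with a log2 change of -2.63 ± 0.44. Ntrk2, the receptor of brain-derived neurotrophic factor, rose from 6.49, 7.32 and 6.78 to 78.9, 66.9 and 61.9 CPM and had a fiber change of -2.06 ± 0.38. Gria1, a glutamate receptor subunit, rose from 0.792, 2.28 and 1.74 to 69.9, 52.5 and 52.5 CPM with a fiber change of -0.09 ± 0.85.

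On the other side, Pcdh17, a protocadherin, fell from 16.9, 11.4 and 16.4 CPM to 6.38, 5.702 and 4.14 CPM in epithelium and rose by 3.46 ± 0.18 in fiber, a difference of -4.94 ± 0.27 (SE, edgeR adjusted p = 5.4e-12). Piezo2, a mechanically gated channel, fell from 50.7, 42.9 and 47.8 CPM to 22.4, 19.03 and 20.4 CPM and rose in fiber by 2.06 ± 0.20. Rnf165, a ubiquitin ligase, fell from 24.7, 24.4 and 26.2 to 9.47, 13.3 and 8.496 CPM and rose in fiber by 1.72 ± 0.12.

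**Figure D5:**
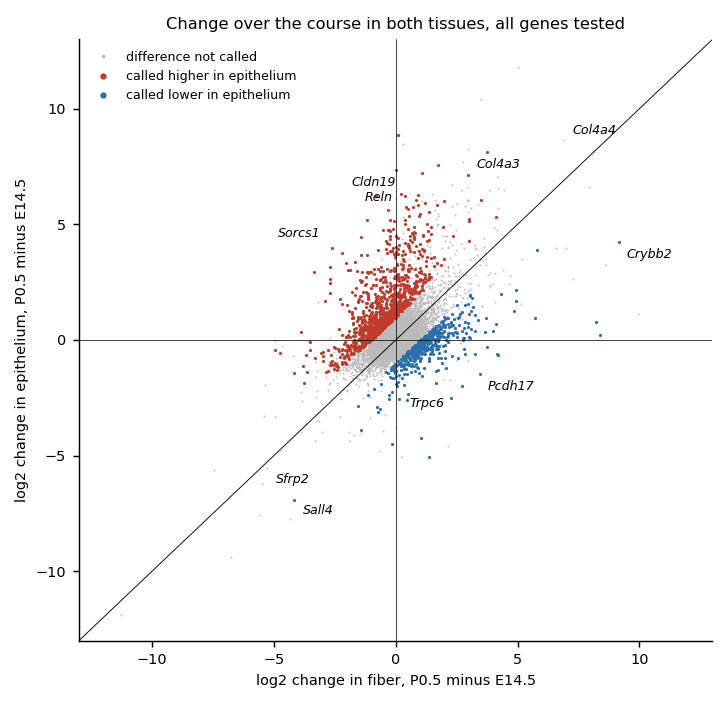
Log2 change from E14.5 to P0.5 in fiber (horizontal) and in epithelium (vertical) for each of the 12427 genes tested, coloured where the difference between the tissues passed the test. Cldn19 and Sorcs1 lie high on the epithelial axis and left of 0 in fiber, and Pcdh17 lies below 0 in epithelium and right of 0 in fiber.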

How the data were processed

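The deposited values are whole-number read counts per gene for 24 libraries, made by the authors. The submitters' processing notes name Trim Galore 0.4.1, TopHat2 2.0.13, HTSeq 0.6.1, Cufflinks 2.2.1, Cuffdiff and the mm10 build, with no role or order. How strand was treated in counting and how the 12611 genes were picked is not given in these sources. Overlapping genes, antisense partners and near-identical copies (globins, crystallins, histones) are therefore uncertain. Library totals of 8970302 to 11731328 counts set the precision of low levels.

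From these counts all 24 libraries were fitted as 8 group means in edgeR 4.0.16 (R 4.3.3) with TMM factors, filterByExpr (minimum count 10, minimum total 15) and the quasi-likelihood test, 16 residual degrees of freedom and a biological coefficient of variation of 0.0821. Benjamini-Hochberg adjustment ran over the 12427 genes kept. A gene was called at an adjusted p under 0.05 and at least 2-fold. SE is the log2 change divided by the root of the test's F. It is only a rough measure for genes near 0 counts. For Col4a4 it was 0.46 in epithelium and 0.57 in fiber but 1.4 for the difference. Folds from 0 counts were set against a floor of 3 counts over the group, and intervals cover counting error only. With 3 libraries against 3 an exact permutation test cannot go below a p of 0.1, so none is used.

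The members of each gene list and the comparison were chosen with earlier results of these data known. Named genes are the 15 largest log2 rises and falls at 20 CPM or more, the 10 largest rises and falls in CPM, the 8 largest differences from fiber in each direction, called and not overlapping between stages, and members of the lists. The script was checked on simulated counts. Alternatives were DESeq2 1.42.0, other scalings, filters and fits, a replicate block and leaving out each library. Sequences are RefSeq promoter windows of GRCm38.p6 and gene positions GENCODE M21.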

Additional observations from a re-analysis of the deposited data

Results flagged for a closer look

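Of 192 genes named in the text and compared with fiber 80 had a change from E14.5 to P0.5 that differed between epithelium and fiber by edgeR's test of the difference itself, higher in epithelium for 57 and lower for 23, beside 7.92% and 3.77% of all genes tested. Each value is the log2 change in epithelium minus that in fiber. Most were chosen partly for this difference or for their change in epithelium, so their number is a description.

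In the matrix lists the difference was 3.28 for Col2a1, 4.17 for Col4a3, 3.81 for Col9a1, 6.35 for Col9a2, 5.33 for Col9a3, 1.67 for Col18a1, 1.96 for Fbn1, 2.8 for Fbn2, 1.49 for Lama2, 3.02 for Ltbp1 and 1.55 for Thbs1. Among markers of retina, pigment and ciliary epithelium it was 5.08 for Otx1, 3.72 for Pmel, 3.43 for Rax, 4.08 for Six6, 2.93 for Stmn2, 2.35 for Tubb3, 4.73 for Tyrp1, 3.81 for Zic1 and 3.7 for Zic2. Among genes of junctions, transport and the lysosome it was 3.93 for Aqp1, 2.89 for Atp1b1, 2.46 for Cgn, 4.5 for Cldn1, 7.01 for Cldn19, 1.91 for Ctsh, 1.32 for Gja1, 1.95 for Nectin3, 4.54 for Slc4a5 and 1.09 for Slc6a6. Among signalling genes it was 2.07 for Aldh1a3, 4.18 for Bmp4, 3.56 for Dll1, 1.03 for Fstl1, 2.8 for Fzd8, 5.23 for Gria1, 5.39 for Ntrk2, 1.09 for Sema3f, 3.49 for Unc5c and 3.52 for Wnt2b. Among the other secreted or membrane proteins it was 2.76 for Apoe, 2.56 for Htra1, 5.21 for Kcnh5, 4.02 for Lrrn1, 5.19 for Reln, 6.6 for Sorcs1, 2.73 for Spon1 and 6.14 for Tmprss11e. Among genes of the cell cycle, growth and stress it was 2.32 for Bcl11a, 1.14 for Cdk1, 5.33 for Fam129a, 1.17 for Gas1, 1.01 for Grb10, 1.46 for Igf2, 2.5 for Sgk1, 1.5 for Tapbp and 2.67 for Txnip.

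Lower changes in epithelium were found for crystallins and fiber genes, at -4.92 for Crybb2, -2.33 for Cryab, -3.24 for Crygs, -2.79 for Hspb1 and -2.48 for Scnn1b. For genes of replication, mitosis and the fetal program it was -2.01 for Espl1, -1.23 for Lin28b, -2.41 for Mcm10 and -2.73 for Sall4. For metabolic genes it was -1.6 for Ldha, -1.56 for Mthfd2, -1.57 for Ppat and -2.99 for Slc16a3. For the remaining genes it was -1.91 for Cd44, -1.22 for Cpne7, -1.76 for Dusp4, -2.02 for Eya4, -1.49 for Ntn1, -4.94 for Pcdh17, -2.14 for Peg10, -3.26 for Piezo2, -3.0 for Rnf165 and -2.69 for Trpc6. Opposite calls in the tissues were found for Sorcs1, Ntrk2 and Col9a2, which rose in epithelium and fell in fiber, and for Slc16a3, Pcdh17, Piezo2 and Rnf165, which fell in epithelium and rose in fiber.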

How the results depend on the processing

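The 1249 rises and 399 falls stayed within 1.5 times under DESeq2 (1219 and 409), other filters, TMM factors without crystallins, fits on fewer libraries and library size alone (1404 and 302). Without a fold threshold 3751 genes were higher and 3553 lower, and edgeR's glmTreat at 1.5-fold called 603 falls. Leaving out 1 epithelium library at a time gave 1230 to 1277 rises and 355 to 479 falls. The difference between the tissues was the result that moved most with scaling. With library size alone it was higher in epithelium for 3260 genes and lower for 138, and without a fold threshold for 2656 and 2558. Leaving out 1 library at a time, fiber libraries included, gave 869 to 1003 and 426 to 500. The fiber libraries were added to these alternatives after seeing the data.

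Replicate numbers showed no pairing of E14.5 with P0.5 epithelium: the deviations of same-numbered libraries of these 2 groups had correlations of -0.013, 0.022 and 0.108. Whether same-numbered epithelium and fiber libraries of a stage are paired was not checked. With the replicate block 1248 genes rose and 402 fell, and the difference was higher for 972 and lower for 466. Of the genes named, 6 lost their call with library size alone, and calls near the 2-fold limit moved with 1 library left out. Genes with a few counts at one stage, such as Ptgds and Hba-x, have folds set by counting error.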
